A study of Mus musculus with 12 samples.

Results

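The genes described here are 10 of the MHC class II antigen presentation pathway, out of 21247 gene names in the count table of periocular skin RNA-seq. They were chosen by name, as 9 listed genes plus *H2-Ea-ps*, and all 10 were in the table and passed the filter on low counts. ft/ft mice lack functional filaggrin, a structural protein of the outer epidermis, through a point mutation that arose spontaneously, on a BALB/c background. ft/ftMyD88-/- mice carry the same mutation and in addition lack MyD88, the adaptor of toll-like receptors and IL-1 family receptors, in all cells. Each group had 4 libraries from eye-skin of mice given as 6 weeks old and female, and both groups therefore share filaggrin deficiency. WT mice were not analysed here. The labels do not say whether each library came from 1 mouse, while the study counts 4 mice in each group for its RNA-seq. The p-values measure the spread between these libraries.

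MHC class II molecules display peptides from engulfed proteins to CD4+ T cells. An alpha and a beta chain are assembled with the invariant chain, which blocks the peptide groove until proteases of the endosome remove it. A peptide exchange factor, H2-DM, then helps to load peptides, and H2-O restrains H2-DM. Transcription of the class II genes is controlled by CIITA, which docks on factors bound to short promoter elements called X and Y boxes. In skin the pathway is best known from Langerhans cells, dermal dendritic cells and macrophages, and interferon gamma can also turn it on in keratinocytes.

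The promoter elements through which the pathway is controlled are shown first. Genes of different roles in the pathway held them, though not every gene searched did. RefSeq promoters of GRCm38.p6, covering 250 bases before to 50 after each start, were given for 6 of the 10 genes, and for *H2-Ab1*, *H2-Ea-ps*, *Cd74* and *Ciita* none was used. The letters GNAAC, the core of the X box, were searched together with TGATTGG, the core of the Y box, which holds a CCAAT element in reverse, at a gap of 10 to 30 bases on either strand. These letters were set after the promoters had been read. The capitals mark both elements in the 4 genes that held the pair, and each sequence is given 5′ to 3′ along the gene's own strand.
H2-Aa (chr17:34287847-34287924, minus strand): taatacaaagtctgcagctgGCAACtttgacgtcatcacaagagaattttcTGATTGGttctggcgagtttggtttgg
H2-Eb1 (chr17:34305756-34305832, plus strand): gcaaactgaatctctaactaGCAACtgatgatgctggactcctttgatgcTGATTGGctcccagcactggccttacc
H2-DMb1 (chr17:34153077-34153154, plus strand): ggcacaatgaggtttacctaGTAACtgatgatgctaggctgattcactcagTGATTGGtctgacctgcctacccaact
H2-Oa (chr17:34092283-34092360, plus strand): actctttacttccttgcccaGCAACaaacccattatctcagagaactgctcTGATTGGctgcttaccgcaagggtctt

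The gap between both elements was 25 or 26 bases in these 4 genes. The pair was found in 0.581% of 32851 promoters of the same length. The promoters of *H2-Ob* and *H2-Eb2* also held it, with gaps of 23 and 25 bases. No match was found in either of the 2 annotated starts of *H2-DMa*, in *H2-DMb2*, which held the Y letters alone, or in *Ctss*. *Ctss* held instead, just before its start, the letters GAAANNGAAA, which resemble the element bound by interferon-regulated factors and occurred in 3.443% of promoters. The capitals mark those letters.
Ctss (chr3:95526745-95526780, plus strand): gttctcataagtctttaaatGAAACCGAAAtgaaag

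Between the groups, 2 of the 10 genes differed, and they moved in opposite directions. *Cd74*, the invariant chain, fell in ft/ftMyD88-/-, being 1.39-fold higher in ft/ft. *Ciita*, the regulator of the pathway, rose 1.45-fold in ft/ftMyD88-/-. Whole skin was measured, so fewer cells of a type and less RNA per cell cannot be told apart. The alpha and beta chains, *H2-DMa*, *H2-DMb1*, *H2-Oa* and *Ctss* did not pass the test. Across all 20454 genes tested, 23.3% were called at an edgeR adjusted p under 0.05, 10.9% higher and 12.3% lower in ft/ftMyD88-/-. Of the 10 pathway genes 1 was higher and 1 lower, a share near that background. The median log2 fold change of the 10 genes was 0.01, as was that of all genes tested. None of the 10 had groups without overlap, against 26.7% of all genes (12.5% higher and 14.2% lower).

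Several facts of the series bear on every value. Total counts ran from 15802957 to 29255129 per library, and the limit that a count of 0 allows, 3 counts, came to 0.102 to 0.183 CPM (read counts scaled to library size and TMM factor), for counting error only. The 10 genes took 0.125% to 0.201% of all counts. *Myd88* itself was at 25.4 to 36.5 CPM in the libraries labelled ft/ft and 32.2 to 48.8 in those labelled ft/ftMyD88-/-. It was called higher in the latter (log2 fold change 0.42, SE 0.142, adjusted p = 0.0484 by edgeR), so its gene count does not check the labels. *Flg*, the filaggrin gene, was at 48.3 to 199 CPM in ft/ft and 191 to 273 in ft/ftMyD88-/-. It was not called (log2 fold change 1.22, SE 0.484, adjusted p = 0.12 by edgeR). *Xist*, transcribed in females, was at 34.6 to 66.8 CPM in ft/ftMyD88-/-, against 1 count summed over ft/ft, while the Y-linked *Ddx3y* was at 54.2 to 73.2 CPM in ft/ft and at most 0.482 in ft/ftMyD88-/-. The ft/ft libraries thus went against their label of female mice, and in every difference below sex and genotype cannot be told apart. *Tmem79*, the gene of the matted mutation that by the methods these mice do not carry, fell from 59.2 ± 2.92 to 16.4 ± 2.1 CPM without overlap (log2 fold change -1.85, adjusted p = 5.08e-07 by edgeR). The labels refer to a protocol for fixed tissue whereas the methods of the study describe polyA-selected TruSeq libraries of frozen biopsies.

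The A isotype is one of the class II molecules of the mouse. Its alpha chain gene, *H2-Aa* (GRCm38 chromosome 17, 34282744 to 34287823), was at 201, 210.1, 275 and 215 CPM in ft/ft replicates 1 to 4 and at 160.3, 191, 250.4 and 196 in ft/ftMyD88-/-. Replicate 3 was the highest library of each group, and the groups overlapped. The log2 fold change of *H2-Aa* was -0.18 (standard error, SE, 0.139, adjusted p = 0.395 by edgeR), with an approximate 95% interval from -0.52 to 0.16. Its beta chain gene, *H2-Ab1* (chromosome 17, 34257689 to 34269419), was at 283, 295, 361 and 289 CPM in ft/ft and 245, 306, 378 and 343 in ft/ftMyD88-/-. Here the lowest and the highest of the 8 libraries were both from ft/ftMyD88-/-. The log2 fold change of *H2-Ab1* was 0.05 (SE 0.132, adjusted p = 0.816 by edgeR), with an interval from -0.27 to 0.37.

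The E isotype depends on the haplotype. *H2-Ea-ps* (chromosome 17, 34341959 to 34344645, annotated as a polymorphic pseudogene and named *H2-Ea* by RefSeq) encodes the E alpha chain, and the reference strain C57BL/6J carries a promoter deletion that silences it, while BALB/c mice express it. All 8 libraries expressed it, at 241, 217, 275 and 232 CPM in ft/ft and 205, 266, 347 and 308 in ft/ftMyD88-/- (log2 fold change 0.22, SE 0.145, interval -0.13 to 0.57, adjusted p = 0.301 by edgeR). The values overlapped, with the lowest and the 2 highest in ft/ftMyD88-/-. *H2-Eb1* (chromosome 17, 34305867 to 34316674), the E beta chain, was at 229, 229.6, 302 and 218 CPM in ft/ft and at 184, 234, 290.0 and 248 in ft/ftMyD88-/-. Its log2 fold change was -0.03 (SE 0.142, interval -0.38 to 0.31, adjusted p = 0.89 by edgeR). *H2-Eb2*, a second E beta gene, had at most 4 counts in any library, and no fold is given. Reads of BALB/c mice were aligned to C57BL/6J sequence, and how many reads of these polymorphic genes were lost to mismatches cannot be read from gene counts.

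*Cd74* (chromosome 18, 60803848 to 60812652) was the most abundant of the 10 genes by CPM. It stood at 421, 493, 582 and 469.5 CPM in ft/ft and at 286, 354, 429 and 343 in ft/ftMyD88-/-. Only ft/ftMyD88-/- replicate 3 reached into the ft/ft range, just above the lowest ft/ft library. The means were 492 ± 67.4 and 353 ± 58.9 CPM (SD, n = 4 each), with a log2 difference of -0.48 (SE 0.133, adjusted p = 0.0217 by edgeR). The call was lost without ft/ft replicate 3 (adjusted p = 0.0714 by edgeR), without ft/ftMyD88-/- replicate 1 (0.0543) and without ft/ftMyD88-/- replicate 4 (0.0586), and with library size alone in place of TMM (log2 fold change -0.30, adjusted p = 0.124 by edgeR). The direction held in every fit.

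**Figure D1:**
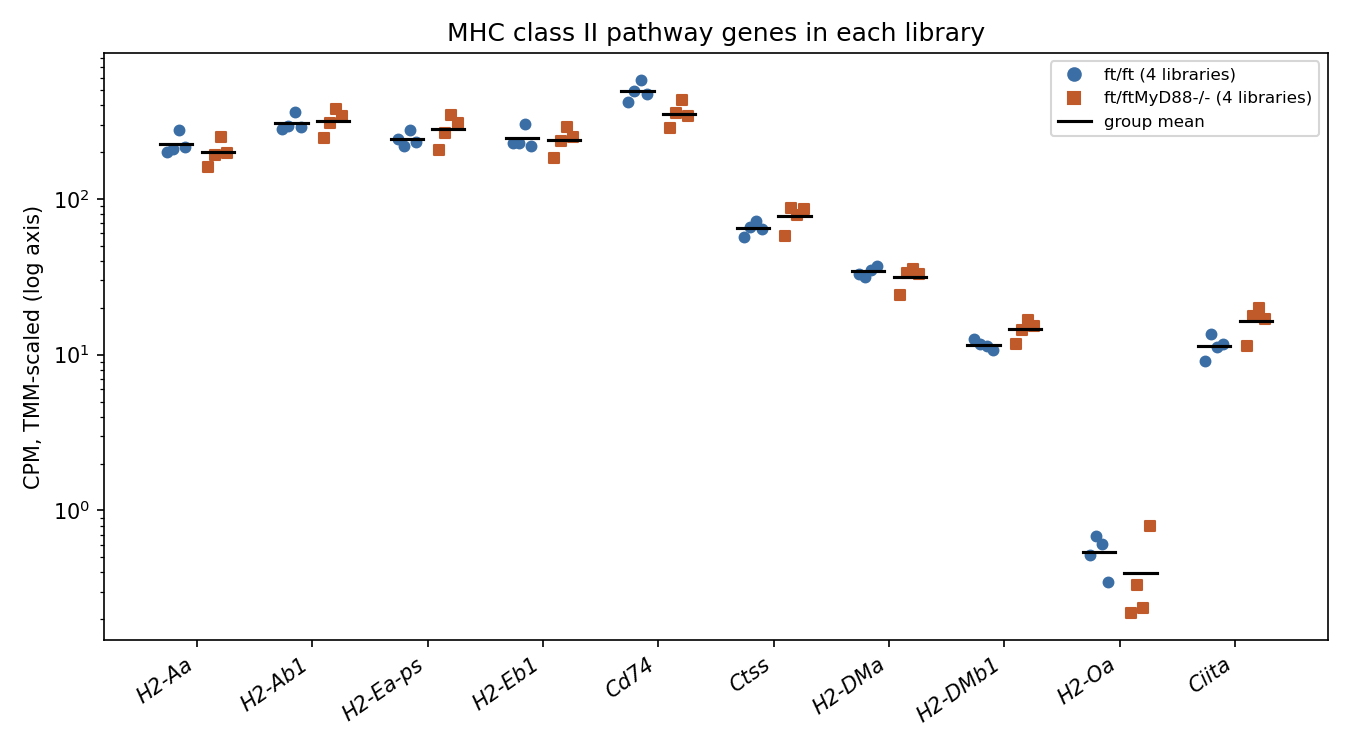
CPM (TMM-scaled, log axis) of the 10 MHC class II pathway genes in each of the 4 ft/ft (circles) and 4 ft/ftMyD88-/- (squares) libraries, with black lines at the group means. *Cd74* was highest by CPM, at 492 against 353 on average, *H2-Oa* lowest, and the groups overlapped for all 10 genes.

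The proteases and exchange factors act in the endosome. *Ctss* (chromosome 3, 95526786 to 95556403) encodes cathepsin S, which cleaves the invariant chain in antigen-presenting cells. It was at 56.9, 66.4, 71.9 and 64.1 CPM in ft/ft and 58.1, 87.0, 79.2 and 86.0 in ft/ftMyD88-/-, where replicate 1 alone lay inside the ft/ft range. The log2 fold change of *Ctss* was 0.26 (SE 0.126, interval -0.05 to 0.57, adjusted p = 0.156 by edgeR), and it passed without ft/ftMyD88-/- replicate 1 (0.38, adjusted p = 0.02 by edgeR) and with library size alone (0.43, adjusted p = 0.0255 by edgeR). *H2-DMa* (chromosome 17, 34119541 to 34139101), the alpha chain of the exchange factor, was at 33.1, 31.7, 35.1 and 37.0 CPM in ft/ft and at 24.0, 33.2, 35.7 and 33.0 in ft/ftMyD88-/- (log2 fold change -0.12, SE 0.12, interval -0.41 to 0.17, adjusted p = 0.503 by edgeR). As with *Ctss*, ft/ftMyD88-/- replicate 1 was the low library of its group.

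*H2-DMb1* (chromosome 17, 34153072 to 34160230) encodes a beta chain of H2-DM. It was at 12.6, 11.7, 11.3 and 10.8 CPM in ft/ft and 11.8, 14.3, 16.7 and 15.3 in ft/ftMyD88-/-, so that 3 of 4 ft/ftMyD88-/- libraries lay above every ft/ft library. The log2 fold change was 0.32 (SE 0.124, adjusted p = 0.0775 by edgeR). It passed with DESeq2 (adjusted p = 0.0397), with library size alone (adjusted p = 0.0112 by edgeR) and without ft/ftMyD88-/- replicate 1 (adjusted p = 0.0237 by edgeR). Its neighbour *H2-DMb2* is a near copy, and 22.7% of the 50-base stretches of *H2-DMb1* transcripts, the read length, were also found in other genes, all in *H2-DMb2*. Reads could therefore have been split between them, and the sum of both gave a log2 fold change of 0.29 (adjusted p = 0.0895 by edgeR).

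*H2-Oa* (chromosome 17, 34092340 to 34095234), the alpha chain of the H2-DM inhibitor that is best known from B cells, was barely detected. It had 12, 19, 11 and 9 counts in the ft/ft libraries, against 5, 9, 7 and 13 in ft/ftMyD88-/-, or 0.541 ± 0.149 and 0.395 ± 0.269 CPM (SD, n = 4 each). The interval of its log2 fold change ran from -1.63 to 0.57 (adjusted p = 0.426 by edgeR), too wide to show a difference at this depth. On the genome 22.8% of its exon bases overlap *BC051537* on the other strand, where reads cannot be told apart without strand. For *H2-DMa* the overlap, with *Brd2*, was 10.4%. *H2-Ob*, the beta chain of the inhibitor, had 15 to 36 counts in ft/ft and 30 to 50 in ft/ftMyD88-/- (log2 fold change 0.65, SE 0.371, adjusted p = 0.226 by edgeR). Without ft/ft replicate 3, its highest ft/ft library, *H2-Ob* was called (log2 fold change 1.19, adjusted p = 0.0138 by edgeR). *H2-DMb2* was not called (0.25, adjusted p = 0.207 by edgeR) except with library size alone (0.43, adjusted p = 0.0361 by edgeR).

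*Ciita* (chromosome 16, 10480059 to 10528418) does not bind DNA itself but acts as the switch of the pathway. It was at 9.09, 13.6, 11.2 and 11.7 CPM in ft/ft and at 11.4, 17.6, 20.01 and 16.95 in ft/ftMyD88-/-. Libraries 2 to 4 of ft/ftMyD88-/- lay above all of ft/ft, and replicate 1 lay among them. The means were 11.4 ± 1.86 and 16.5 ± 3.62 CPM (SD, n = 4 each), with a log2 difference of 0.54 (SE 0.172, adjusted p = 0.0412 by edgeR). With limma voom the gene was not called (adjusted p = 0.0644), nor in 6 of 8 edgeR fits on 7 libraries, all but those without ft/ft replicate 2 or ft/ftMyD88-/- replicate 1, with edgeR adjusted p-values from 0.00641 to 0.102. The log2 fold change was between 0.44 and 0.68 in those 8 fits.

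Fold changes of genes this close to 0 depended on the scaling. With library size alone in place of TMM, the median log2 fold change of all genes tested moved from 0.01 to 0.19, and *H2-Aa* (0.00), *H2-Eb1* (0.14) and *H2-DMa* (0.06) then took a positive sign. Among all called genes the share higher in ft/ftMyD88-/- moved from 47.0% to 77.8%. *Cd74* stayed negative and *Ciita* positive under both.

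**Figure D2:**
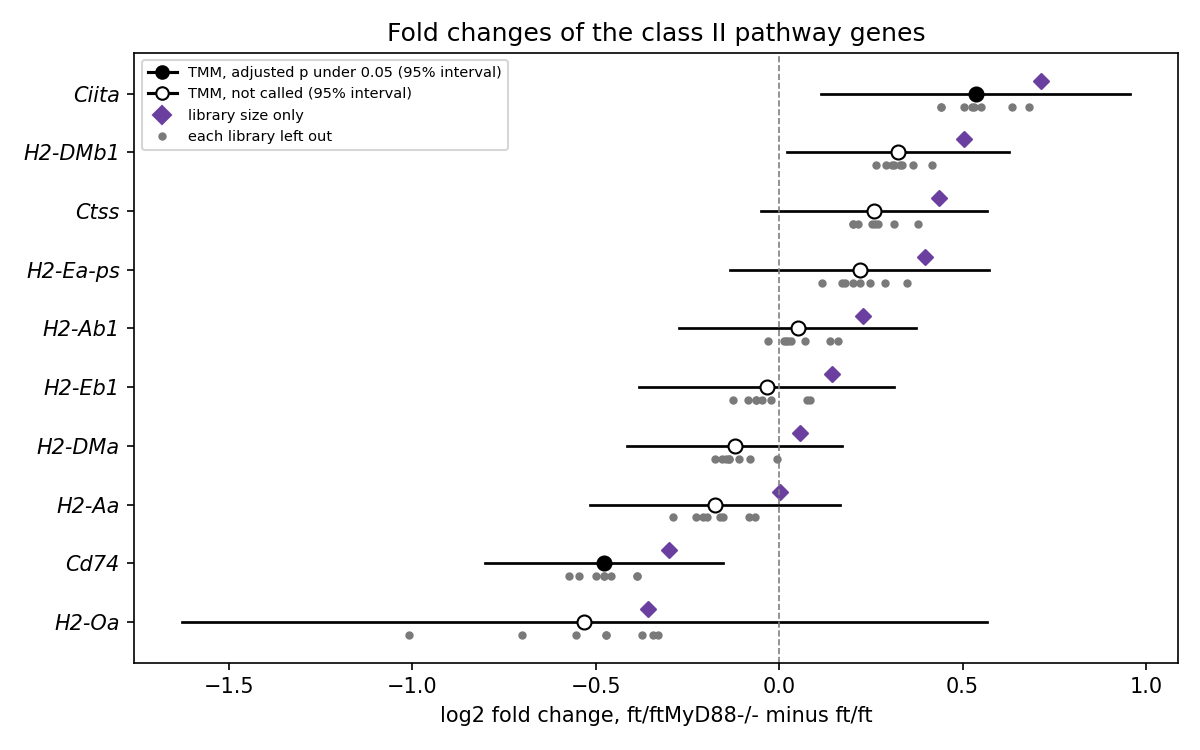
Log2 fold changes (ft/ftMyD88-/- minus ft/ft, 4 libraries each) of the 10 genes with TMM scaling, with approximate unadjusted 95% intervals as lines and filled circles for an edgeR adjusted p under 0.05. Diamonds give library size alone and grey dots the 8 fits without 1 library. *Cd74* (-0.48) and *Ciita* (0.54) were called, and *H2-Aa*, *H2-Eb1* and *H2-DMa* changed sign with library size alone.

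Ratios of counts within a library do not depend on scaling, and 4 of them were compared. *Cd74* to *H2-Ab1* was 1.49, 1.68, 1.61 and 1.62 in ft/ft and 1.17, 1.16, 1.14 and 1.00 in ft/ftMyD88-/-. Every ft/ft library thus held more *Cd74* per *H2-Ab1* count than every ft/ftMyD88-/- library, by 1.44-fold on average (two-sided exact permutation test, p = 0.0286, the lowest possible with 4 against 4, adjusted over the 4 ratios p = 0.0571). *Ciita* to *H2-Ab1* was at most 0.0462 in ft/ft (lowest 0.0309) and at least 0.0466 in ft/ftMyD88-/- (highest 0.0577), 1.4-fold higher without overlap (exact permutation test, p = 0.0286, adjusted p = 0.0571). *H2-Eb1* to *H2-Ab1* was 0.754 to 0.837 in ft/ft and 0.725 to 0.768 in ft/ftMyD88-/- (exact permutation test, p = 0.114, adjusted p = 0.152). *H2-Oa* to *H2-DMa*, inhibitor to exchange factor, was 0.00932 to 0.0218 and 0.00667 to 0.024 (exact permutation test, p = 0.371, adjusted p = 0.371). No ratio passed 0.05 after adjustment.

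Further ratios were chosen after the values were seen and were given no test. For the chains of the A molecule, *H2-Aa* to *H2-Ab1* was 0.712, 0.713, 0.762 and 0.743 in ft/ft and 0.654, 0.625, 0.663 and 0.573 in ft/ftMyD88-/-. *H2-Ea-ps* to *H2-Eb1* was 1.05, 0.947, 0.911 and 1.06 in ft/ft and 1.11, 1.13, 1.196 and 1.24 in ft/ftMyD88-/-. In both pairs the groups did not overlap, and relative to its beta chain the alpha chain was lower in ft/ftMyD88-/- for A and higher for E.

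**Figure D3:**
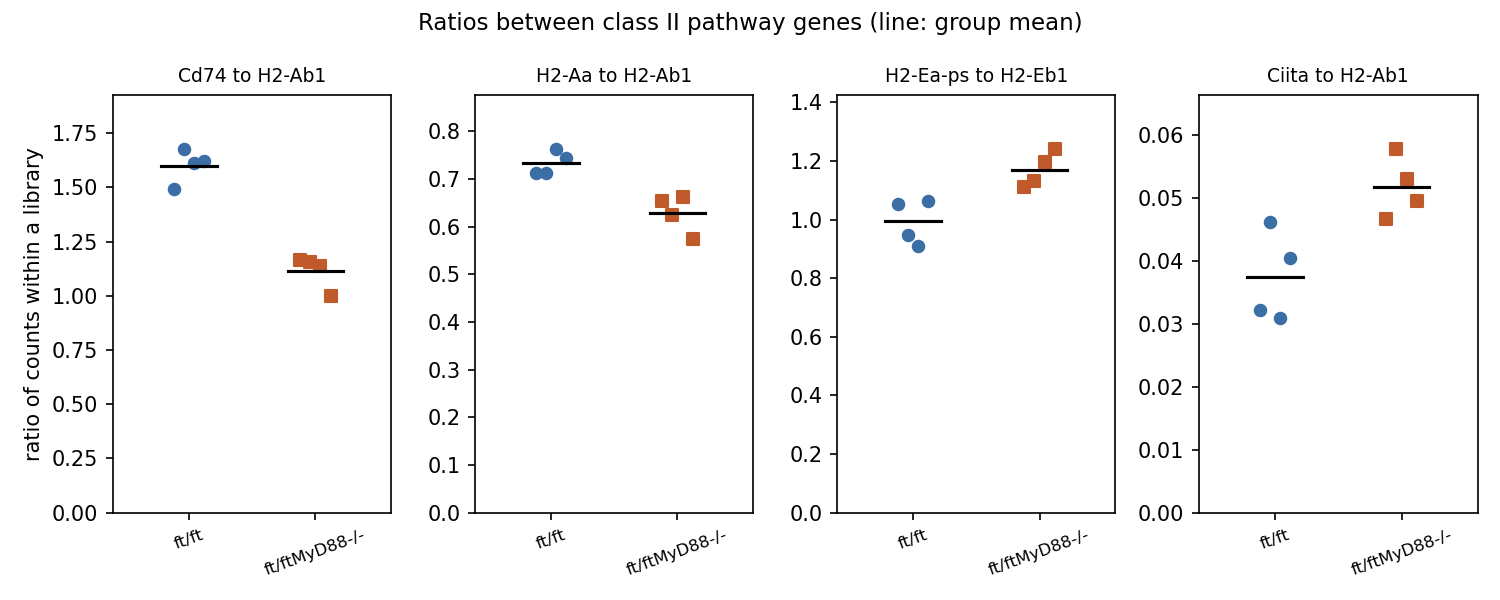
Ratios of counts within each library for 4 gene pairs, with 4 ft/ft (circles) and 4 ft/ftMyD88-/- (squares) libraries, black lines at the group means and axes from 0, the pairs of *H2-Aa* and *H2-Ea-ps* having been chosen after their values were seen. In each of the 4 pairs drawn the groups did not overlap, with *Cd74* to *H2-Ab1* from 1.49 to 1.68 in ft/ft and 1.00 to 1.17 in ft/ftMyD88-/-. The planned pairs *H2-Eb1* to *H2-Ab1* and *H2-Oa* to *H2-DMa* overlapped and are not drawn.

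Levels were set side by side per kilobase of annotated exon. In ft/ft the order was *Cd74* (293 ± 40.1 CPM per kb, SD, n = 4), *H2-Ea-ps* (233 ± 23.8), *H2-Eb1* (126 ± 19.9), *H2-Ab1* (119.5 ± 14.2), *H2-Aa* (59.3 ± 8.86), *Ctss* (47.7 ± 4.57), *H2-DMa* (9.93 ± 0.673), *H2-DMb1* (6.9 ± 0.448), *Ciita* (1.19 ± 0.195) and *H2-Oa* (0.385 ± 0.106). *H2-Eb1* and *H2-Ab1* did not differ beyond their spread. In ft/ftMyD88-/- the level of *H2-Ea-ps* (271 ± 58.8 CPM per kb) stood above that of *Cd74* (210.2 ± 35.1), within their spread. *H2-Ab1* (124 ± 22) and *H2-Eb1* (123 ± 22.5) were again alike within their spread. *Ctss* (57.1 ± 9.88) stood above *H2-Aa* (52.5 ± 9.86), also within their spread, and the other 4 genes followed in the same order as in ft/ft. *H2-Aa* was divided by 3798 exon bases, a union over all its annotated transcripts that is longer than that of the other chains.

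Other genes of the pathway were taken from lists by role, chosen with earlier results of these data known. Over all genes tested, 10.9% were higher, 12.3% lower and 26.7% without overlap. The factors that bind the X and Y boxes, *Rfx5*, *Rfxap*, *Rfxank*, *Nfya*, *Nfyb*, *Nfyc* and *Creb1*, had no call among 7 (median log2 fold change 0.02, lowest -0.09, highest 0.16). *Nfya* (35 CPM in ft/ft, 38.8 in ft/ftMyD88-/-) was the only one without overlap between the groups, and its edgeR adjusted p was 0.178. Among 10 endosomal proteases and processing genes 2 were lower and none higher in ft/ftMyD88-/-. *Ifi30*, the thiol reductase that unfolds antigens, fell from 82.5 ± 5.76 to 66.9 ± 5.85 CPM (log2 fold change -0.30, SE 0.0903, adjusted p = 0.0301 by edgeR), a call lost in 5 of the 8 fits without 1 library and with library size alone. *Cst3*, cystatin C, an inhibitor of such proteases, fell from 765 ± 59 to 569 ± 76.6 CPM (log2 fold change -0.43, SE 0.112, adjusted p = 0.0174 by edgeR) and lost its call without ft/ft replicate 3 (0.0535) and with library size alone (0.109). *Lgmn*, asparagine endopeptidase, lay without overlap at 82.9 to 94.2 CPM in ft/ft and 94.2 to 183 in ft/ftMyD88-/-, and did not pass (adjusted p = 0.135 by edgeR). *Ctsd* also lay without overlap, at 569 to 640.1 CPM against 509 to 560.5 in ft/ftMyD88-/- (adjusted p = 0.119 by edgeR). *Ctsl*, *Ctsb*, *Ctsd*, *Ctsh*, *Ctsz*, *Ctsc* and *Cst7* had log2 fold changes from -0.19 to 0.58, none of them called.

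All 3 genes of class II turnover were called and differed without overlap, where 23.3% and 26.7% of all genes tested did. *March1*, a ubiquitin ligase that removes class II from the surface of dendritic cells and B cells, was at 5.49, 4.66, 4.46 and 5.33 CPM in ft/ft and 6.70, 8.71, 8.54 and 8.17 in ft/ftMyD88-/-. It rose by 0.69 on the log2 scale (SE 0.141, adjusted p = 0.00476 by edgeR). *Cd83*, which opposes that ligase, was at 5.83, 3.53, 5.19 and 4.98 CPM in ft/ft and 7.41, 7.17, 10.4 and 10.7 in ft/ftMyD88-/-, and rose by 0.87 on the log2 scale (SE 0.192, adjusted p = 0.00685 by edgeR). *March8*, a related ligase with a wider range of tissues, moved the other way, from 144 to 187 CPM in ft/ft to 117 to 118 in ft/ftMyD88-/- (log2 fold change -0.44, SE 0.0923, adjusted p = 0.00524 by edgeR). These 3 calls held in all 15 other fits run.

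Of 5 genes that meet class II at the contact with T cells, 4 were higher, against 10.9% of all genes tested. *Cd4*, the co-receptor that binds class II, rose from 2.54 ± 0.776 to 4.65 ± 0.305 CPM (log2 fold change 0.88, adjusted p = 0.0118 by edgeR). The co-stimulatory genes *Cd40* (log2 fold change 0.95, adjusted p = 0.0123 by edgeR), *Cd80* (0.95, adjusted p = 0.0327 by edgeR) and *Cd86* (0.50, adjusted p = 0.044 by edgeR) also rose. Without 1 library, *Cd80* lost its call in 4 of 8 fits and *Cd86* in 7 of 8. *Lag3*, an inhibitory receptor for class II, was at 2.31 ± 0.901 and 2.39 ± 0.269 CPM (adjusted p = 0.901 by edgeR).

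Interferon gamma is the classical inducer of *Ciita*. Its gene, *Ifng*, had 0 counts in all 4 ft/ft libraries and 1, 1, 1 and 0 in ft/ftMyD88-/-, under the minimum for testing and at or below the limit that a count of 0 allows. Of 10 tested genes of its axis, 2 rose and 1 fell in ft/ftMyD88-/-, against 10.9% and 12.3% of all genes tested. *Socs1*, a feedback inhibitor, rose from 5.02 ± 0.903 to 8.63 ± 0.987 CPM (log2 fold change 0.79, SE 0.156, adjusted p = 0.00396 by edgeR). *Cxcl10*, a chemokine, was at 0.257 to 0.613 CPM in ft/ft and 0.404 to 2.04 in ft/ftMyD88-/- (log2 fold change 1.46, SE 0.476, adjusted p = 0.0441 by edgeR), a call lost in 6 of the 8 fits without 1 library. The kinase gene *Jak1* fell (log2 fold change -0.32, SE 0.0926, adjusted p = 0.0261 by edgeR) and lost its call in 5 of the 8 and with library size alone. *Irf1* (-0.20) and *Gbp2* (-0.20) were not called, nor were *Ifngr1* (0.04), *Ifngr2* (0.19), *Jak2* (0.18) and *Cxcl9* (0.96).

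Markers of cells that can carry class II, of all leukocytes and of T cells were set beside these values. The summed CPM of the 10 genes was 1489 to 1927 for ft/ft libraries and 1186 to 1846 for ft/ftMyD88-/-. Over the same libraries 5 pan-leukocyte genes summed to 136 to 174.6 and 179.8 to 256 CPM, without overlap, with 3 of 5 called higher. For this and the marker lists below, the shares over all genes tested were 10.9% higher and 12.3% lower. The marker lists too were chosen with earlier results of these data known. *Ptprc*, CD45 of all leukocytes, rose from 22.2 ± 1.85 to 36.1 ± 4.55 CPM (log2 fold change 0.70, SE 0.111, adjusted p = 0.00112 by edgeR), as did *Coro1a* (0.66, adjusted p = 0.00349 by edgeR), while *Laptm5* was not called (0.22, adjusted p = 0.232 by edgeR). Per *Ptprc* count, in a ratio chosen after the values were seen and not tested, there were 20.6 to 25.3 counts of *Cd74* in ft/ft and 8.96 to 10.8 in ft/ftMyD88-/-. For *H2-Ab1* there were 12.3 to 15.7 and 7.74 to 9.75. These ratios depend on the divisor, because *Ptprc* had the largest rise of the 5 pan-leukocyte genes. *Itgb2*, like *Laptm5*, was not called (0.35, adjusted p = 0.136 by edgeR), and no ratio to another leukocyte gene was taken. The part of these cell markers in the class II values was not tested.

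Among 12 markers of dendritic and Langerhans cells, 5 were higher and 1 lower in ft/ftMyD88-/-, and their sum was 98.5 to 117 CPM in ft/ft and 113 to 159.6 in ft/ftMyD88-/-. *Cd207*, langerin of Langerhans cells, rose from 22.9 ± 1.47 to 35.2 ± 8.14 CPM (log2 fold change 0.62, SE 0.146, adjusted p = 0.00984 by edgeR). *Irf8*, a transcription factor of dendritic cells and monocytes, rose from 15.1 ± 1.95 to 27.6 ± 3.58 (log2 fold change 0.87, adjusted p = 7.04e-04 by edgeR), and *Clec10a*, a lectin of dermal dendritic cells and macrophages, did not pass (0.10, adjusted p = 0.674 by edgeR). Named after their values were seen, *Xcr1* (1.21, adjusted p = 0.00584 by edgeR) and *Batf3* (1.09, adjusted p = 0.0051 by edgeR), of cross-presenting dendritic cells, and *Zbtb46* (0.59, adjusted p = 0.0368 by edgeR) were the other genes that rose, and *Itgax*, CD11c, was the one that fell (-0.49, adjusted p = 0.0432 by edgeR). *Zbtb46* and *Itgax* each lost the call in 6 of the 8 fits without 1 library.

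The 10 macrophage markers summed to 379 to 557 CPM in ft/ft and 453 to 691 in ft/ftMyD88-/-, with 2 higher and none lower. *C1qa*, a complement subunit, rose (log2 fold change 0.51, SE 0.133, adjusted p = 0.0158 by edgeR), while *Csf1r* (-0.21, adjusted p = 0.241 by edgeR) and *Mrc1* (0.27, adjusted p = 0.434 by edgeR) did not pass. Of 7 B cell markers, 6 were tested and 1 was higher, and the list summed to 2.01 to 4.91 CPM in ft/ft against 7.01 to 7.93. Without *Blk*, left out after the values were seen, the other 6 markers summed to 0.429 to 1.67 and 1.25 to 2.28 CPM, which overlapped. That gene, *Blk*, at 2.08 ± 0.801 and 5.86 ± 0.359 CPM (log2 fold change 1.51, adjusted p = 8.2e-04 by edgeR), is a kinase also found in IL-17-producing gamma delta T cells. *Cd79b* and *Cd22* were under 1 CPM in every library, and of the defining B cell genes, named after their values were seen, *Ms4a1* and *Pax5* had 0 to 7 counts. The 5 T cell markers were all higher, with a sum of 14.4 to 17.7 CPM in ft/ft and 22.4 to 29.6 in ft/ftMyD88-/-. Of these, *Cd5* lost its call in 5 of the 8 fits without 1 library, *Cd3d* in 3 and *Cd3g* in 1. Keratinocyte markers, which summed to 21152 to 27539 CPM in ft/ft and 17430 to 21598 in ft/ftMyD88-/-, were abundant in both groups, with 3 of 6 lower, *Krt10* among them (-0.58, adjusted p = 0.0045 by edgeR), and *Krt1* (-0.10) and *Krt14* (0.05) not called.

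**Figure D4:**
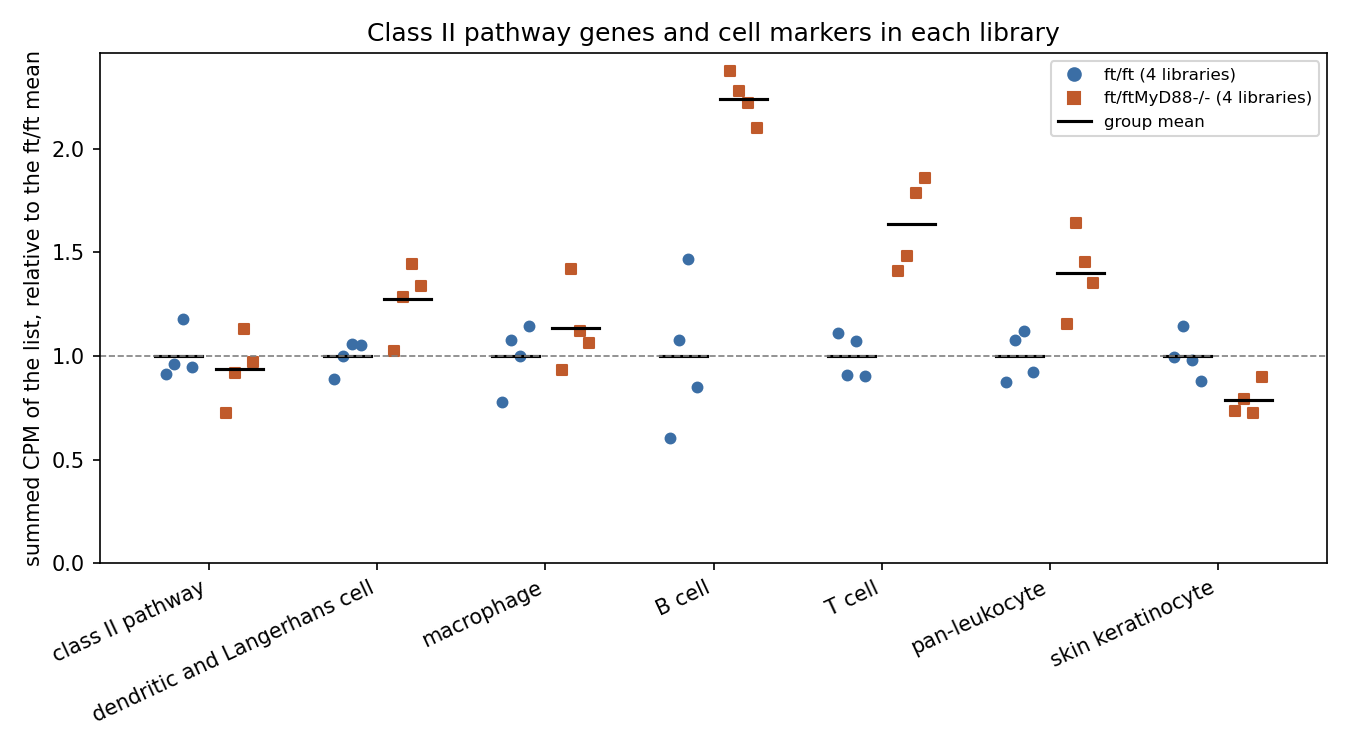
Summed CPM of the 10 class II pathway genes and of 6 marker lists in each library, relative to the ft/ft mean of the list (dashed line at 1), for 4 ft/ft (circles) and 4 ft/ftMyD88-/- (squares) libraries with black lines at the group means. The T cell and pan-leukocyte sums did not overlap between the groups, nor did the B cell sum, which overlapped without *Blk*. The class II sum overlapped, at 1489 to 1927 CPM in ft/ft and 1186 to 1846 in ft/ftMyD88-/-. So did the sums of dendritic and Langerhans cell, macrophage and keratinocyte markers.

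Profiles over the 8 libraries were compared with that of *H2-Ab1* only, and of the other pathway genes *H2-Eb1* was the closest. After centring log2 CPM over the libraries, the root mean square difference from *H2-Ab1* was 0.0616 for *H2-Eb1*, 0.104 for *H2-Ea-ps*, 0.129 for *H2-Aa* and 0.146 for *H2-DMa*. It was larger for *Ctss* (0.162), *H2-DMb1* (0.191), *Cd74* (0.273), *Ciita* (0.303) and *H2-Oa* (0.527). Among 13431 other genes with a mean of at least 50 counts, the nearest were *Lipa*, lysosomal acid lipase (0.0644), *Slc14a1* (0.0692), *Mmrn1* (0.0823), *Fam188b* (0.0968), *Psmb10*, an immunoproteasome subunit (0.0972), *Dubr* (0.0978), *Fam114a1* (0.101) and *E2f6* (0.103). All 8 lay closer to *H2-Ab1* than *H2-Ea-ps*, *H2-Aa* and *H2-DMa* did, and of the pathway genes only *H2-Eb1* lay closer than they. None of these 8 genes was called between the groups. That follows from their selection, because each was picked for lying close to *H2-Ab1*, which was not called. The values describe the libraries, which share 1 scaling, and carry no test.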

How the data were processed

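Periocular skin of ft/ft and ft/ftMyD88-/- mice, 4 libraries each, was analysed from 1 deposited table of gene counts, raw and not normalized. By the authors' methods, HISAT and tophat2 placed the reads on GRCm38.p6. The methods name HTSeq, at default parameters, for the comparison of the groups, and the counting step is not described apart from it. The labels of these samples name Cell Ranger and GRCm38 instead. Versions, annotation and strand setting are not given in the sources used here. WT libraries were not analysed here.

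Genes with at least 10 counts over the 8 libraries (20454 of 21247) entered edgeR 4.0.16 under R 4.3.3 (TMM, glmQLFit with robust = TRUE, glmQLFTest, no covariate, two-sided, Benjamini-Hochberg adjustment over all genes at 0.05). Standard errors were log2 fold change over the square root of F, and intervals used 6 degrees of freedom. Ratios were tested with exact permutations (scipy 1.17.1). DESeq2 1.42.0, limma 3.58.1 voom and the other alternatives are given at the end. Replicate pairs of a group differed by at least 15.1 in chi-square per degree of freedom, so each was kept as its own replicate. Scripts were first tested on simulated data.

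Named genes were the members, the pathway lists, the 3 most abundant genes of each marker list and the 8 nearest profiles. Members and lists were chosen with earlier results of these data known. Exon lengths and positions came from GENCODE annotation of GRCm38, and promoters from RefSeq.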

Additional observations from a re-analysis of the deposited data

Results flagged for a closer look

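Of 28 sets of 4 libraries examined (10 genes and 4 ratios in 2 groups), 2 held a library far from the other 3, where chance gives about 1 in 20. Both were ft/ft replicate 3, with *H2-Ab1* at 361 CPM against at most 295 in the others, and *H2-Eb1* at 302 against at most 229.6. The gap to the nearest library, divided by the group's range, was 0.849 and 0.863.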

How the results depend on the processing

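Across all genes, 2239 were higher and 2525 lower in ft/ftMyD88-/-, and the counts moved by over 1.5 times with library size alone (4638 and 1326), an adjusted p under 0.01 (951 and 1350) and a minimum absolute log2 change of 1 (752 and 520). Without 1 library they were 1462 to 2260 higher, lowest without ft/ft replicate 4, and 1851 to 2408 lower. Of the 10 genes, 1 was higher and 1 lower. Library size alone gave 3 higher and 0 lower, DESeq2 2 higher, limma voom 0 higher, and fits without 1 library 0 to 3 higher and 0 to 1 lower. The sign turned with library size alone for *H2-Aa* (0.0031), *H2-Eb1* (0.14) and *H2-DMa* (0.057). *H2-Ab1* ranged from -0.030 (without ft/ftMyD88-/- replicate 3) to 0.16, and *H2-Eb1* from -0.13 to 0.084 (without ft/ft replicate 3, and 0.08 without ft/ftMyD88-/- replicate 1). The causes were not tested. RLE scaling, other filters and 0.5 counts added to ratios changed no call of the 10 genes or 4 ratios.

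With the replicate number as a block, 1895 genes were higher and 2144 lower, with 1 and 1 of the 10 genes. Deviations of libraries sharing a number correlated at -0.146 to 0.025, and 1 of 4 numbers correlated best with itself. With 4 numbers this can neither show nor exclude a pairing. Depth limits *H2-Oa*, with 5 to 19 counts per library.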
